A study of Mus musculus with 6 samples.

Results

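The Reg family of secreted lectin-like proteins was followed through 6 single-cell RNA sequencing libraries of mouse pancreas. The 6 members, Reg1, Reg2, Reg3a, Reg3b, Reg3d and Reg3g, are 6 of the 31053 features counted in each cell, and they were chosen by their measured levels in these same libraries. Their rise with pancreatitis is therefore described here without a test. The mice were R26[CA]30EYFP, of C57Bl/6J strain, and their pancreatic cells were split into an EYFP positive and an EYFP negative fraction, so that each of 3 runs gave 1 library of each fraction. Run 3 was taken 9 days after acute pancreatitis, for which cerulein, an analogue of the secretagogue cholecystokinin, had been injected intraperitoneally at 50 ug/kg hourly, 7 times a day on 2 consecutive days. Runs 1 and 2 were in homeostasis, with no treatment. The mice of all 6 libraries carried the EYFP allele. What drives EYFP, the number of mice behind a library and their age are not given in the sources used here.

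Reg proteins are small secreted proteins built around a C-type lectin-like fold, and acinar cells, which make the digestive enzymes, store several of them in zymogen granules. Reg1 (lithostathine, or pancreatic stone protein) is a regular secretory product of the resting exocrine pancreas, whereas Reg3b is the classical pancreatitis-associated protein, and Reg3g is best known as a bactericidal lectin of the intestinal epithelium. Cytokines that signal through STAT3, such as interleukin 6 and interleukin 22, are known inducers of the Reg3 genes, and the exostosin-like protein Extl3 has been proposed as a Reg receptor.

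The start-site regions of 4 members are shown. Reg1 had the highest level in homeostasis, and Reg2, Reg3b and Reg3g were nearly absent there and higher in pancreatitis. The regions of Reg3a, which had the same pattern as these, and of Reg3d are not shown. No link between a region and a level was tested. Each window holds the 250 bases before the annotated start on the coding strand, taken from RefSeq on GRCm38.p6, at chr6:78425733-78425982 (plus strand) for Reg1, chr6:78404905-78405154 (plus strand) for Reg2, chr6:78370635-78370884 (plus strand) for Reg3b and chr6:78468875-78469124 (minus strand) for Reg3g. Capitals mark matches to 3 of the 4 motifs searched, namely an E-box followed after 6 bases by TTCCC, the palindrome TTCNNNGAA, and TATAAA.
Reg1: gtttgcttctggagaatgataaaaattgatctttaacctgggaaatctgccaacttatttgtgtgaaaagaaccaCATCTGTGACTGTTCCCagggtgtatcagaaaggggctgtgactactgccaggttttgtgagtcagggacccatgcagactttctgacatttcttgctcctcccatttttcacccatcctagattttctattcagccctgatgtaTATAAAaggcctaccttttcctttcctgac
Reg2: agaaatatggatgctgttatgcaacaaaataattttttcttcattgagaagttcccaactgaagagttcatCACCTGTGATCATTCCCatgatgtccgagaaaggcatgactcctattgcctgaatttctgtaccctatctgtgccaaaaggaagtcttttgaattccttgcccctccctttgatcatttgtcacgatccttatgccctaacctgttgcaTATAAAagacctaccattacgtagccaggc
Reg3b: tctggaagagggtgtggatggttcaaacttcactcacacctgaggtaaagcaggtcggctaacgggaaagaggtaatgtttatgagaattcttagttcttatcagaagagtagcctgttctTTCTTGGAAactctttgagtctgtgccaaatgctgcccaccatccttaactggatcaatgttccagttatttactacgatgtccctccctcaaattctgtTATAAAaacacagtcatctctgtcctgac
Reg3g: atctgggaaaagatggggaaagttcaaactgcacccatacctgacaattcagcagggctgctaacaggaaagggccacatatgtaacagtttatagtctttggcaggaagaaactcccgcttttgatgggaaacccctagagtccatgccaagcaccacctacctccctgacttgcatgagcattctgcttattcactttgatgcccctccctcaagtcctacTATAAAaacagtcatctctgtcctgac

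Reg1 and Reg2 each held 1 match to the motif CANNTGNNNNNNTTCCC, an arrangement like the bipartite site bound by the acinar factor PTF1, with its first base at -175 in Reg1 and at -179 in Reg2. Among all 32851 windows of this length in the table, 0.295% held such a match on either strand, and the windows of the 4 Reg3 genes held none. The motif was picked after these windows had been read. The palindrome TTCNNNGAA, the core that STAT dimers recognise, was matched once in Reg3b, at -129, and once in Reg3d, at -238, against 7.02% of all windows. TATAAA, searched on the coding strand only, began at -30 in Reg1 and Reg2, at -29 in Reg3b and at -27 in Reg3g and had no match in Reg3a or Reg3d, against 7.59% of all windows with one. The motif CACCTG, an E-box that in Reg2 is the first part of the longer match, was found in Reg2, Reg3a, Reg3b and Reg3d and in 17.2% of all windows. These are matches of letters and not measured binding.

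In the GENCODE annotation of the same build the 6 genes lay next to each other within 98.2 kb of chromosome 6, in the order Reg3b, Reg3d, Reg3a, Reg2, Reg1, Reg3g. The transcripts of Reg1 and Reg2 were 78.9% identical over the aligned bases, and Reg3b was 75.5% identical to Reg3a and 74.4% identical to Reg3g. No pair of the 6 transcripts shared an identical run of more than 35 bases, the longest being between Reg3b and Reg3g. The window before the start was 70% identical between Reg3b and Reg3g and 69% identical between Reg1 and Reg2. These pairs did not stand apart. Over all pairs the identity ran from 56.3% for Reg2 and Reg3g to 71.9% for Reg3a and Reg3g, with 68.7% for Reg2 and Reg3a.

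The libraries held between 220 and 3593 cell barcodes each, 8582 in all with 44833541 UMIs (unique molecular identifiers, which count captured RNA molecules). After filtering, 4879 cells were kept, of which 560 formed the acinar-like class, defined by digestive enzyme and other acinar markers and clustered without the Reg genes. Acinar-like cells numbered 91 in EYFP positive run 3 and 360 in EYFP negative run 3, against 40, 36, 8 and 25 in EYFP positive runs 1 and 2 and EYFP negative runs 1 and 2, and all 23 acinar markers were detected in each library. Digestive enzymes made up a median of 76.9% and 75.3% of a cell's UMIs in the EYFP positive and EYFP negative cells of run 3, against 75.5%, 16.2%, 74.2% and 50.5% in the 4 homeostasis libraries in the same order. The low values of run 2 went with a cluster of 30 acinar-like cells poor in enzyme RNA, of which 20 were in EYFP positive run 2. Both libraries of a run shared barcodes, 23 in run 1, 71 in run 2 and 47 in run 3, and in most of those kept in both libraries the 2 cells fell into the same class (17 of 18, 60 of 66 and 10 of 11). Among acinar-like cells such barcodes numbered 1, 2, 1 and 1 in the 4 homeostasis libraries and 0 in run 3. In run 1 their part was larger when counted in UMIs. Shared barcodes held 64918, 7410, 18620 and 559 UMIs, out of 285132, 75575, 49994 and 114896 acinar-like UMIs, in the same order. Without them Reg2 fell from 10 to 6 UMIs in EYFP positive run 1. Reg3d fell from 6 to 2 UMIs in EYFP negative run 1. The run 1 levels therefore rest in part on shared barcodes. Xist, the RNA of the inactive X chromosome, which was looked at outside the rule for named genes, stood at 30.7 and 9.93 CPM in the kept cells of EYFP positive and EYFP negative run 3, against 874, 357, 1176 and 757 CPM in the homeostasis libraries. The Y-linked Ddx3y had 51.2 and 48.6 CPM in the 2 fractions of run 3, against 0, 38.3, 0 and 24.5 CPM. Pancreatitis, run number and the make-up of the libraries by sex therefore cannot be told apart in any comparison of run 3 with runs 1 and 2, and no run holds both conditions. Nothing in the labels says that libraries of 1 fraction came from separate mice, and each p-value therefore rests on library-to-library spread alone, which may be technical.

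Reg1 was the member with the highest level in every library, and the only one found in nearly every acinar-like cell without injury. It reached 23969 CPM (UMIs of a gene scaled to a total of 1000000 over the acinar-like cells of a library) in EYFP positive and 27513 CPM in EYFP negative acinar-like cells of run 3, against 12261 and 3745 CPM in EYFP positive runs 1 and 2 and 7781 and 14335 CPM in EYFP negative runs 1 and 2. Both pancreatitis libraries lay above all 4 homeostasis libraries. How many of all genes separate the groups in this way was not counted. Such a separation, here or below, is therefore not read as particular to the members. Summed over libraries, Reg1 stood at 26742 CPM in pancreatitis and 11064 CPM in homeostasis, a ratio of 2.42 (95% counting interval 2.35 to 2.48). Set against digestive enzyme UMIs instead of all UMIs, the ratio was 2.12, with 31.3 and 37.4 Reg1 UMIs per 1000 enzyme UMIs in the EYFP positive and EYFP negative cells of run 3, against 16.2, 16.9, 10.5 and 22.8 in the homeostasis libraries. Intervals for sums and shares cover counting error only, and with 2 libraries against 4 they say nothing about variation between mice.

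**Figure D1:**
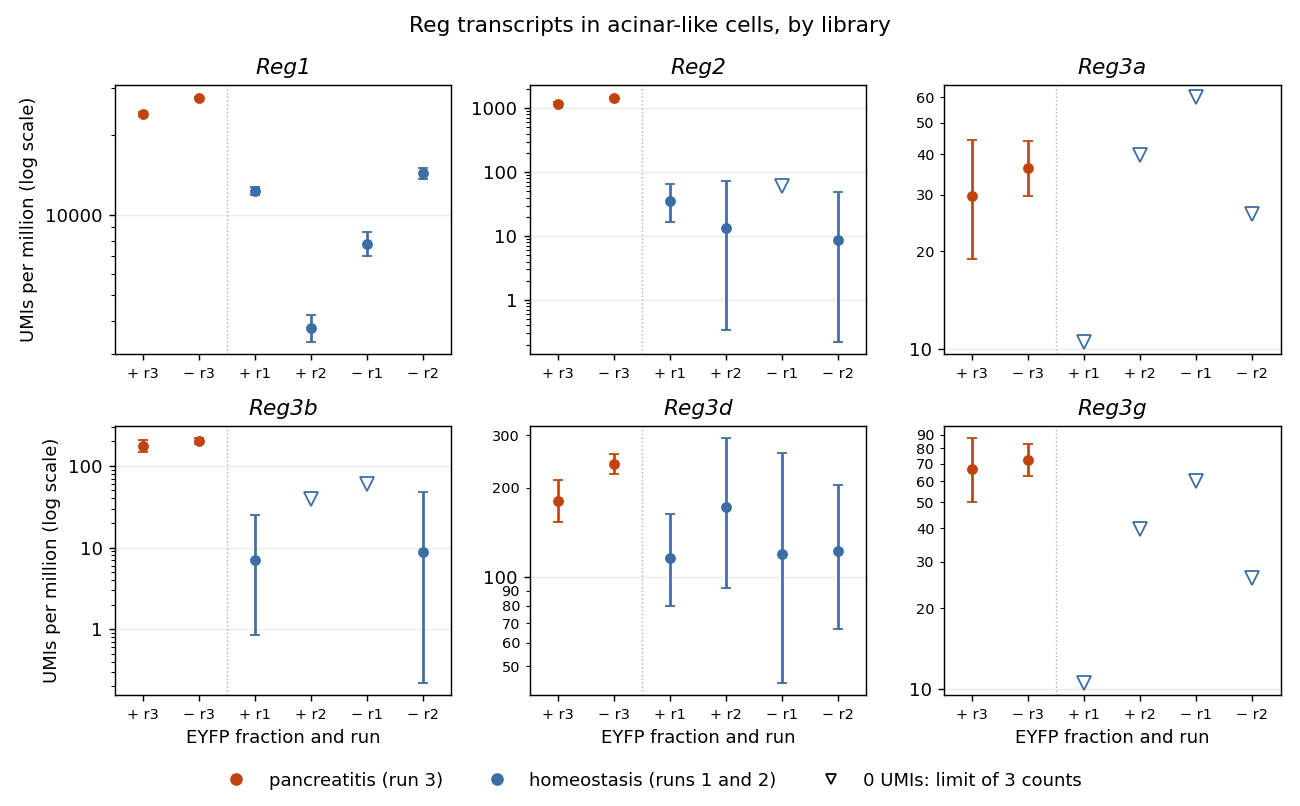
Level of each Reg gene in acinar-like cells (vertical axis, CPM on a log scale with a different range in each panel) in each library (horizontal axis, + and − for the EYFP fraction, r for the run). Points are library sums with exact Poisson 95% intervals and open triangles mark libraries with 0 UMIs at the level of 3 counts. Reg2 and Reg3b in run 3 lie above every homeostasis library by more than their intervals, while the Reg3d interval of EYFP positive run 3 overlaps those of all homeostasis libraries.

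Reg2, the nearest relative of Reg1 by transcript sequence, was nearly silent in homeostasis. Its level was 1179 CPM in EYFP positive and 1445 CPM in EYFP negative cells of run 3 (952 and 4198 UMIs), against 35.1 and 13.2 CPM in EYFP positive runs 1 and 2 and 0 and 8.7 CPM in EYFP negative runs 1 and 2 (10, 1, 0 and 1 UMIs). The lowest pancreatitis library had more than 1000 CPM, while no homeostasis library passed 40 CPM. The ratio of summed CPM was 60.8 (95% counting interval 34.8 to 118). It was 38.7 (21.5 to 77.7) within the EYFP positive fraction. Within the EYFP negative fraction it was 238 with an interval of 42.8 to 9416, since only 1 UMI stood in homeostasis. Without the barcodes shared between the libraries of a run, the ratio over both fractions was 75.3.

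Reg3b, Reg3g and Reg3a, whose rat counterparts are named pancreatitis-associated proteins, were close to absent from homeostasis acinar-like cells. Reg3b had 173 CPM in EYFP positive and 202 CPM in EYFP negative cells of run 3, against 7.01, 0, 0 and 8.7 CPM in the homeostasis libraries, which together held 3 of its UMIs. The ratio of summed CPM was 34.3 (95% counting interval 11.7 to 167). Reg3g, the bactericidal lectin, had 66.9 and 72.3 CPM in EYFP positive and EYFP negative cells of run 3 (54 and 210 UMIs) and no UMI in the 109 homeostasis acinar-like cells, so that it was at least 12.5-fold higher in pancreatitis when 3 counts are allowed over all homeostasis libraries. Reg3a, a member of the same group, had 29.7 and 36.2 CPM in EYFP positive and EYFP negative cells of run 3 (24 and 105 UMIs) and likewise no UMI in homeostasis, at least 6.09-fold higher by the same limit. Both run 3 libraries held all 3 genes, and no homeostasis library reached the run 3 level of any of them. In EYFP positive run 2 and EYFP negative run 1, however, 3 counts equal 39.7 and 60 CPM, so that a level like that of Reg3a in run 3 was not detectable at this depth in those libraries.

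Reg3d, which encodes the islet neogenesis-associated protein-related protein, behaved differently from the rest of its subfamily. It had 181 and 241 CPM in the EYFP positive and EYFP negative cells of run 3, against 116, 172, 120 and 122 CPM in the homeostasis libraries. The pancreatitis values lay just above the homeostasis values, but the 95% counting interval of the EYFP positive run 3 value (153 to 213) overlapped those of all 4 homeostasis libraries. The ratio of summed CPM was 1.81 (1.41 to 2.37), and it was 1.59 (1.23 to 2.07) relative to enzyme UMIs. In the EYFP positive fraction alone the ratio per enzyme UMI was 1.19 (0.851 to 1.7).

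Per kilobase of the longest annotated transcript, the order of the levels in pancreatitis was Reg1 (29582 CPM per kilobase), Reg2 (1989), Reg3d (292), Reg3b (250), Reg3g (92.2) and Reg3a (42.2). In homeostasis it was Reg1 (12239), Reg3d (161), Reg2 (32.7) and Reg3b (7.29), with Reg3a and Reg3g at 0. Reg3d and Reg3b were neighbours that did not differ beyond counting error in EYFP positive run 3, with 181 CPM (153 to 213) for Reg3d and 173 CPM (146 to 205) for Reg3b. In EYFP negative run 3 their intervals did not overlap, with 241 CPM (223 to 259) for Reg3d and 202 CPM (186 to 219) for Reg3b. Reg2 moved past Reg3d in the pancreatitis libraries. Under 9 other ways of choosing acinar-like cells, including an enzyme gate and all deposited barcodes, the summed CPM ratio of pancreatitis to homeostasis ran from 2.13 to 2.57 for Reg1, 42.1 to 75.3 for Reg2, 28.3 to 35.6 for Reg3b and 1.63 to 2.06 for Reg3d. With stricter cells the lower bounds fell to 7.16-fold for Reg3g and 3.86-fold for Reg3a. With all deposited barcodes Reg3g had 2 homeostasis UMIs, and the bound for Reg3a was 7.91-fold.

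The share of acinar-like cells with a UMI was also compared at equal depth. The median acinar-like cell had 6482 UMIs in pancreatitis and 2876 in homeostasis, so each cell was thinned to 1000 UMIs, which left out 13 of 451 cells in pancreatitis and 14 of 109 in homeostasis. At that depth Reg1 was seen in 99.1% of pancreatitis cells and 94.7% of homeostasis cells. Reg2 was seen in 55.7% (exact 95% interval 50.9% to 60.4%) and 1.05% (0.0266% to 5.73%). Reg3b was seen in 17.8% of pancreatitis cells and in 0 of 95 homeostasis cells. Reg3d was seen in 21.5% (17.7% to 25.6%) and 12.6% (6.7% to 21%), shares whose intervals overlapped. Reg3g and Reg3a were seen in 5.48% and 2.05% of pancreatitis cells and in none of the 95 homeostasis cells. The exact interval of these homeostasis shares reaches 3.81%. It overlaps the interval of Reg3g (3.54% to 8.04%) narrowly and covers most of that of Reg3a (0.944% to 3.86%). Overlap of intervals is not a test of a difference, and no test of the shares was run. Before thinning, the shares in pancreatitis and homeostasis were 99.8% and 94.5% for Reg1, 84.7% and 7.34% for Reg2, 57.9% and 2.75% for Reg3b, 67.4% and 35.8% for Reg3d, 36.8% and 0% for Reg3g, and 20.8% and 0% for Reg3a.

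**Figure D2:**
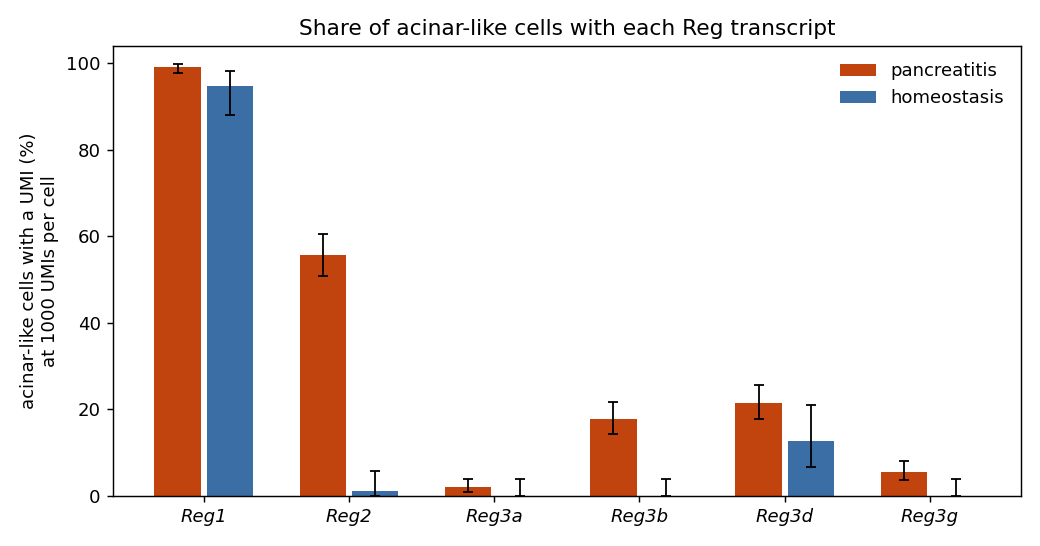
Share of acinar-like cells with at least 1 UMI of each Reg gene (vertical axis, percent) after every cell was thinned to 1000 UMIs, in pancreatitis (438 cells of 2 libraries) and homeostasis (95 cells of 4 libraries). Bars are shares and whiskers exact 95% binomial intervals, and the widest gap is that of Reg2, with 55.7% and 1.05%.

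Most acinar-like cells of run 3 held more than 1 kind of Reg transcript. At 1000 UMIs, 65 of 85 EYFP positive and 254 of 353 EYFP negative run 3 cells held UMIs of at least 2 members, against 4 of 40, 4 of 26, 0 of 8 and 3 of 21 cells in EYFP positive runs 1 and 2 and EYFP negative runs 1 and 2. No cell held 5 or 6 members at that depth. In the median cell Reg1 alone took 2.23% and 2.59% of all UMIs in EYFP positive and EYFP negative run 3, against 0.978%, 0.333%, 0.828% and 1.17% in the homeostasis libraries. The 5th and 95th percentiles in EYFP negative run 3 were 0.629% and 4.85%. Reg2 was spread over fewer cells. In EYFP negative run 3 the 36 cells with most Reg2 UMIs held 46.8% of them, and the 36 cells with most Reg1 UMIs held 28.9% of those, while the 36 deepest cells held 27.9% of all UMIs.

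Among the 360 acinar-like cells of EYFP negative run 3, Reg1 and Reg2 had a Spearman correlation of 0.454, which was 0.484 in the 91 cells of EYFP positive run 3. Reg3b and Reg3g had 0.312 in EYFP positive and 0.23 in EYFP negative run 3, and Reg1 and Reg3b had 9.99e-05 and 0.123. Reg3d had 0.182 and 0.341 with Reg1, and 0.0748 and 0.334 with Reg2, in the same order of libraries. In EYFP negative run 3, 710 genes, the 6 members among them, were seen in at least 20% of the cells. With the members left out of the ranking, the genes with a pattern most like Reg1 were Zg16, a lectin-like zymogen granule protein (0.602, and 0.536 in EYFP positive run 3), Rnase1, a secreted ribonuclease (0.594 and 0.462), the trypsinogen Try4 (0.431 and 0.248), the chymotrypsinogen Ctrb1 (0.368 and 0.176) and Sycn, a zymogen granule membrane-associated protein (0.333 and 0.15). For Reg2 they were Try4 (0.312 and 0.305), Ctrb1 (0.299 and 0.31), the neuropeptide precursor gene Gal (0.277 and 0.0821), Rnase1 (0.254 and 0.0474) and the gamma-glutamyl hydrolase gene Ggh (0.234 and 0.0904). For Reg3a, Reg3b, Reg3d and Reg3g no gene outside the family reached 0.3 in EYFP negative run 3, values too low in such sparse counts to read as a finding. These are descriptions across cells of 1 library, which share its depth and scaling, and in EYFP negative run 3 the correlation of a member's scaled level with a cell's total UMIs was itself 0.11 to 0.314.

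**Figure D3:**
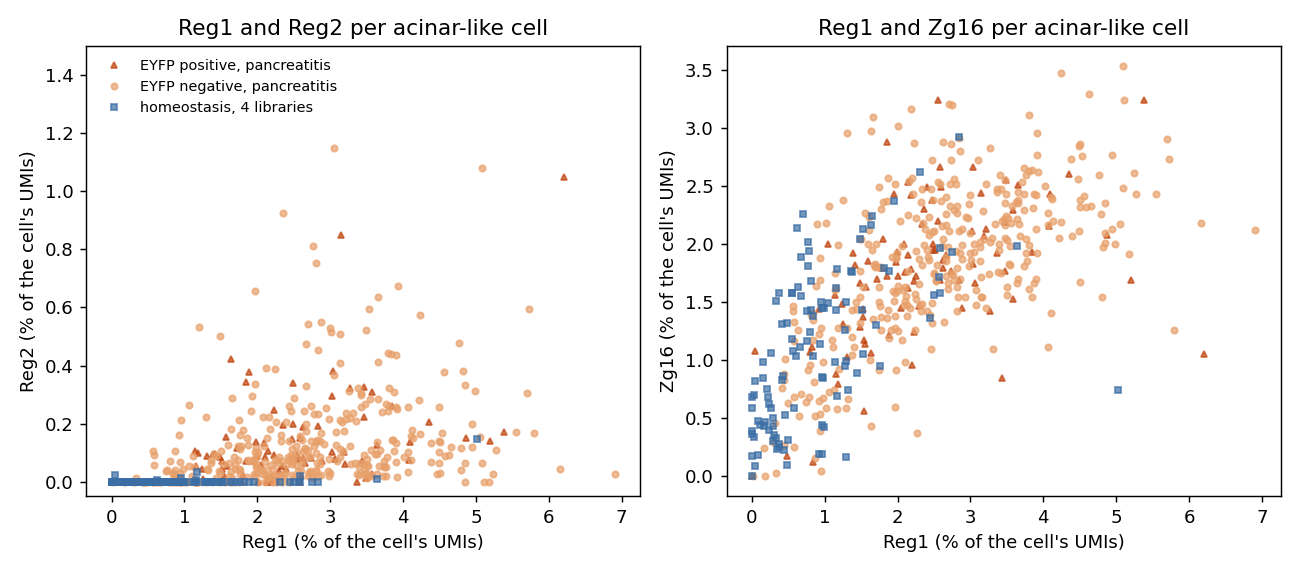
Reg2 (left) and Zg16 (right) against Reg1 in single acinar-like cells, each as percent of the cell's UMIs. Triangles are EYFP positive and circles EYFP negative cells of pancreatitis run 3, and squares are cells of the 4 homeostasis libraries, which lie at or near 0 for Reg2, except for 1 cell, and overlap the pancreatitis cells for Zg16.

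In an edgeR quasi-likelihood fit of the library sums over all genes, 46 of 819 genes tested between pancreatitis and homeostasis (5.62%) passed an adjusted p under 0.05, 8 of them higher (0.977%) and 38 lower (4.64%) in pancreatitis. With the size factors of DESeq2 in the same test the split was 7 higher and 0 lower, and with DESeq2 itself 7 and 147. The fitted log2 change of the members was 1.48 ± 1.05 for Reg1, 6.49 ± 1.01 for Reg2, 5.16 ± 0.81 for Reg3b and 0.87 ± 0.64 for Reg3d (each ± SE), beside a median of -0.12 over all genes tested. Reg2 and Reg3b passed the filter on low counts through run 3 only. Their homeostasis side rests on 12 and 3 UMIs, so the sizes of their changes are uncertain beyond the SE. Reg3g, against a group at 0 UMIs, has no fitted value that can serve as a bound, and Reg3a did not pass the filter on low counts. The count of 46 rests on single libraries, and it was 0 without EYFP positive run 3, 2 without EYFP negative run 3, 2 without EYFP positive run 1 and 232 without EYFP negative run 1. The 2 libraries of a run enter this fit as separate replicates, although those of the homeostasis runs deviated together (correlation 0.43 over 677 genes). In effect 1 run of pancreatitis is set against 2 of homeostasis. The adjusted p-values of the fit, those of single genes included, are therefore too small as measures of the condition. Since the members were chosen with this contrast known, nothing is read from their place among the genes called.

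Of the 8 genes called higher, 5 belonged to the list of digestive enzymes, of which 33 were tested, 0 were called lower and 11 had a log2 change below 0 without passing. They were Gm2663 (573 and 410 CPM in EYFP positive and EYFP negative run 3, and 0 in all homeostasis libraries), 1810009J06Rik (585 and 328 CPM, and 0 in homeostasis), Prss1, Gm5771 and Gm10334, which was named after its values had been seen. Prss1, a trypsinogen, had 245 and 142 CPM in EYFP positive and EYFP negative run 3, against 3.51, 0, 0 and 8.7 CPM in homeostasis, a log2 change of 5.80 ± 0.86 (SE, edgeR adjusted p = 0.0056). Such genes have close copies in the genome, and reads may be split among copies, so their levels are uncertain. The list was chosen with earlier results of these data known, so its 5 called genes are not read as support. All 5 passed the filter on low counts through run 3 only, Gm2663 and 1810009J06Rik having no UMI in homeostasis. The adjusted p of Prss1 is therefore not read as support either. The median log2 change of the 33 enzymes was 0.14, and Cpa1, which encodes carboxypeptidase A1, had 20827 and 19174 CPM in EYFP positive and EYFP negative run 3, against 36211, 11790, 38125 and 31855 CPM in homeostasis (log2 change -0.53 ± 1.17, SE, edgeR adjusted p = 0.80). The granule cargo list, which holds Zg16 and Sycn, had 0 of 6 tested genes called and a median of -0.11. Zg16 itself had a log2 change of 0.57 ± 1.02 (SE, edgeR adjusted p = 0.75). The other 3 of the 8 were members, about which nothing is read from the call.

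For EYFP positive against EYFP negative, a fit to the 6 libraries that also held the condition was used, and 0 of 513 genes (0%) passed in edgeR, 2 having an unadjusted p under 0.05, and 0 passed in DESeq2. Reg1 and Reg3d, the only members through the filter in this comparison, had log2 changes of -0.26 ± 0.73 and 0.01 ± 0.42 (SE, edgeR adjusted p = 1 each). With run as a replicate block the count was also 0, with 19 genes at an unadjusted p under 0.05. In run 3, the CPM ratio of EYFP positive to EYFP negative was 0.871 for Reg1, 0.816 for Reg2, 0.858 for Reg3b, 0.925 for Reg3g, 0.822 for Reg3a and 0.751 for Reg3d. All 6 lay below 1, but they come from 1 library per fraction and share its scaling. The counting intervals of Reg3a (0.504 to 1.29), Reg3b (0.708 to 1.03) and Reg3g (0.673 to 1.25) included 1. Those of Reg1, Reg2 and Reg3d did not. The share of all genes with a run 3 ratio below 1 was not counted. The shared direction is therefore not read as particular to the members. In homeostasis the Reg1 ratio was 1.58 in run 1 and 0.261 in run 2, on opposite sides of 1. Per enzyme UMI the run 2 ratio was 0.738. The test of whether the pancreatitis effect differs between the fractions called 0 of 2478 genes (0%), with 33 at an unadjusted p under 0.05 and 0 in DESeq2, but 78 without EYFP positive run 1. Each pancreatitis group there is 1 library assumed to vary like the others.

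Outside the acinar-like class the Reg transcripts were rare. Acinar-like cells held 96.5% of the Reg UMIs of all kept cells, but Reg1 of run 3 gave 99258 of the 112269 UMIs behind this share. Of all Reg UMIs of a library, removed barcodes included, other kept cells held 0.682% and 3.25% in EYFP positive and EYFP negative run 3. In EYFP positive runs 1 and 2 and EYFP negative runs 1 and 2 they held 5.02%, 31.8%, 13.5% and 11.6%. Reg1 reached 490 CPM in 26 ductal-like cells of pancreatitis and 54.3 CPM in 318 of homeostasis, 170 and 70 CPM in endothelial-like cells, 94.9 and 36.6 CPM in B or plasma-like cells, and 86.3 and 34.5 CPM in T or NK-like cells. Reg1 UMIs were found in 35.5% of pancreatitis T or NK-like cells and 13.9% of those of homeostasis, a class that does not make digestive enzymes. Its ratio to enzyme UMIs, however, was 30.5 per 1000 in the T or NK-like cells of pancreatitis and 16.2 in those of homeostasis, against 36 and 17 in the acinar-like cells of the same conditions. Over all kept cells outside the acinar-like class and the unnamed cluster the ratio was 30.2 (28.3 to 32.2) in pancreatitis and, without 1 cell rich in Reg3g, 17.4 (16.2 to 18.7) in homeostasis. Reg2 had 1.8 (1.36 to 2.34) per 1000 enzyme UMIs in these cells in pancreatitis and 1.87 in acinar-like cells. For Reg1 in pancreatitis, 30.2 per 1000 lay below the acinar-like value of 36 by more than its counting interval. The shares of cells with a Reg1 UMI in these classes are not read as expression, and the part of RNA free in the droplets was not tested. A single ductal-like cell of EYFP negative run 3 with 58164 UMIs, 11% of them from enzyme genes, held 193 of the 231 Reg1 UMIs of its class in pancreatitis. The cell rich in Reg3g held 93 of the 416 Reg1 UMIs of the endothelial-like class in homeostasis, which stood at 54.5 CPM without it. A cluster of 18 run 3 cells left without a name, rich in haemoglobin as well as enzyme RNA, had 37.1 Reg1 UMIs and 3.74 Reg2 UMIs per 1000 enzyme UMIs. Counting it as acinar-like gave summed ratios of 2.37 for Reg1 and 60.7 for Reg2.

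**Figure D4:**
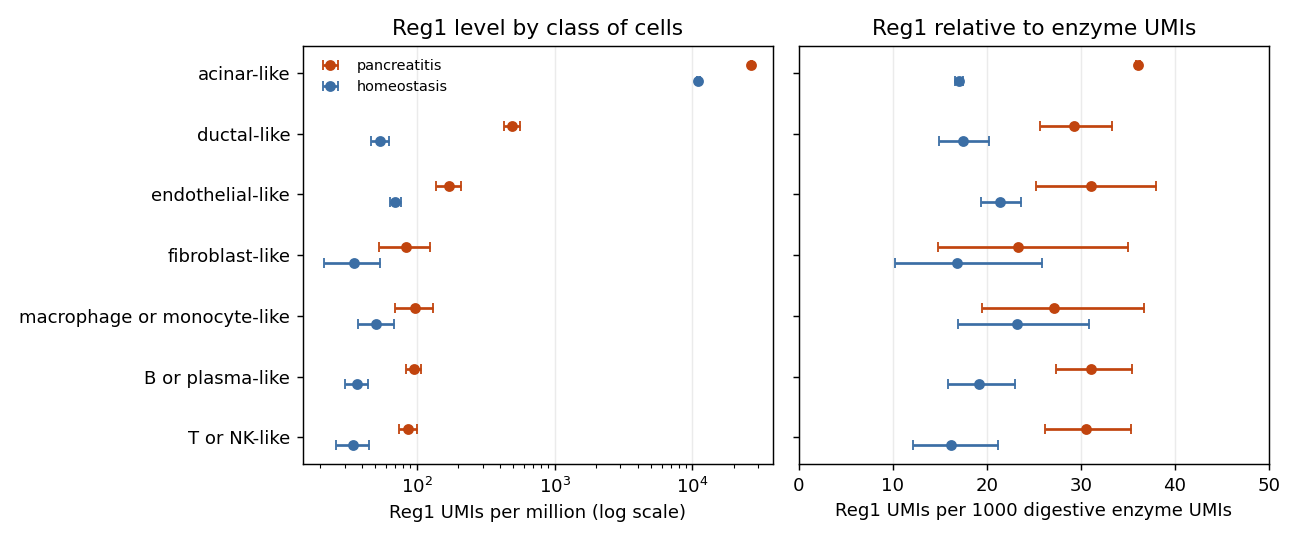
Reg1 by class of cells as CPM (left, log scale) and per 1000 digestive enzyme UMIs (right), in pancreatitis (2 libraries summed) and homeostasis (4 libraries summed). Points are summed values with exact Poisson 95% intervals for the Reg1 count. The endothelial-like homeostasis sums include the cell rich in Reg3g. Levels differ between classes by orders of magnitude on the left, while on the right, over the 7 classes drawn, the homeostasis points lie between 16.2 and 23.2 and the pancreatitis points between 23.3 and 36.

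The 12 Reg-inducing cytokines of a fixed list were all but absent from acinar-like cells, with 0 UMIs in EYFP positive and 1 in EYFP negative run 3, and 2 in the homeostasis libraries together. None of the 12 could be tested there. In other cells of the libraries Il6 had 16 UMIs in pancreatitis, 13 of them in 2 macrophage or monocyte-like cells, and 10 UMIs in homeostasis. Il22, the cytokine best known for inducing Reg3 genes in epithelium, had 2 UMIs, both in 1 T or NK-like cell of pancreatitis, and 0 in homeostasis. Ifng had 173 UMIs in 330 T or NK-like cells of pancreatitis and 45 UMIs in 287 of homeostasis. Il1b went the other way by UMIs, with 78 UMIs in 56 macrophage or monocyte-like cells of pancreatitis and 312 UMIs in 164 of homeostasis. These UMIs lay in 11 of the 56 and 27 of the 164 cells, so that the share of cells did not fall. Il6, Il22, Ifng and Il1b were picked from the 12 outside the rule for named genes, and others varied by class. Tnf had 38.9 CPM in T or NK-like cells of pancreatitis and 17.9 CPM in those of homeostasis. In macrophage or monocyte-like cells it had 28.4 and 91.8 CPM. Il33 had 36.2 and 153 CPM in fibroblast-like cells, and Osm 11 and 9.96 CPM in T or NK-like cells. These are sums over 2 and 4 libraries with no test.

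Receptor and signalling transcripts were more frequent than those of the cytokines in acinar-like cells, but still few in run 3. Of the 20 genes for cytokine receptors and JAK-STAT3 signalling, 1 was tested between conditions and 0 were called. The list summed to 29.7 and 42.7 CPM in EYFP positive and EYFP negative run 3, against 130, 1958, 80 and 331 CPM in homeostasis. Stat3 had 0 and 1.03 CPM in EYFP positive and EYFP negative run 3, against 14, 92.6, 0 and 17.4 CPM. Socs3, a target of STAT3, had 0 CPM in both run 3 libraries, against 38.6, 251, 20 and 8.7 CPM. The highest values of both genes were in EYFP positive run 2, the library with the lowest enzyme share, and its part in these differences was not tested. Il6st, the shared signalling receptor of the interleukin 6 family, had 1.24 and 1.03 CPM in EYFP positive and EYFP negative run 3, against 3.51, 26.5, 0 and 34.8 CPM. Il6ra had 0 and 0.344 CPM, against 0, 26.5, 0 and 52.2 CPM in homeostasis, while Il22ra1 had 0 UMIs in run 3 and 1 in homeostasis, and Il17ra had 1 and 2. Extl3, the proposed Reg receptor, had 3.72 and 3.79 CPM in the acinar-like cells of EYFP positive and EYFP negative run 3, against 0, 304, 0 and 34.8 CPM, and 33.7 CPM in endothelial-like cells of pancreatitis and 44.4 CPM in those of homeostasis.

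The acute-phase and acinar injury response was covered by a list of 18 genes, of which 6 were tested and 0 were called, with a median log2 change of -0.39. Spink1, the secretory trypsin inhibitor, had 5935 and 5984 CPM in EYFP positive and EYFP negative run 3, against 3668, 1019, 3520 and 4526 CPM in homeostasis (log2 change 0.97 ± 0.99, SE, edgeR adjusted p = 0.58). Both run 3 values lay above the 4 homeostasis values. Nupr1, a stress-response regulator first described in injured pancreas, had 2011 and 2467 CPM, against 2252, 15680, 1040 and 2620 CPM (log2 change -0.30 ± 0.98, SE, edgeR adjusted p = 0.86). Lcn2, a siderophore-binding acute-phase protein, had 0 CPM in both run 3 libraries, and 1 UMI in homeostasis, in EYFP positive run 2. Saa3 and Reg4, a more distant Reg gene on another chromosome, had 0 UMIs in all acinar-like cells. Of the 8 acinar transcription factors 3 were tested and 0 called, with a median log2 change of -2.11. The list summed to 177 and 183 CPM in EYFP positive and EYFP negative run 3, against 281, 5174, 360 and 740 CPM in homeostasis. Of the 12 duct and acinar-to-ductal metaplasia genes 4 were tested and 0 called, with a median of -0.56. That list summed to 447 and 536 CPM in run 3, against 863, 3162, 560 and 644 CPM. Both lists were highest in EYFP positive run 2, the library with the lowest enzyme share, and its part in the medians was not tested.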

How the data were processed

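Counts of UMIs per gene and cell were deposited by the authors as 10x matrices, 1 per library, made with Cell Ranger 2.1.0 per the submitters' processing notes, while the file headers name software version 3.1.0. The notes name GRCh38, and for a mouse build the sources used here give none. Barcodes with under 200 genes or over 20% mitochondrial UMIs were left out, and doublets were marked with Scrublet in scanpy 1.11.5 and removed. Cells were clustered without the Reg genes on 2000 variable genes, 30 components and 15 neighbours at resolution 1, and clusters were named from a marker list. Counts summed over the acinar-like cells of a library were filtered with filterByExpr and tested with the quasi-likelihood test of edgeR 4.0.16 at a Benjamini-Hochberg adjusted p under 0.05, and DESeq2 1.42.0 was an alternative. The scripts were tested on simulated data. Poisson and Clopper-Pearson intervals of 95%, and a limit of 3 counts for 0 UMIs, cover counting error only. The members and gene lists were chosen with earlier results of these data known. Named genes were the members, up to 4 called genes of lowest p per list, 14 fixed genes, and for each member the 5 genes most alike across cells. Run numbers pair the libraries, since the labels name a run. Deviations of same-numbered libraries from the mean of their fraction had correlations of 0.253, 0.676 and 0.742 over 677 genes. These values include the difference between run 3 and the other runs, which both fractions share, and so cannot show pairing by themselves. Within the homeostasis runs alone the correlation was 0.43, a single value for both runs. Alternatives changed the scaling, filter, cells and libraries used.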

Additional observations from a re-analysis of the deposited data

Results flagged for a closer look

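A single cell of EYFP positive run 2 held 54 of the 57 Reg3g UMIs of homeostasis cells outside the acinar-like class, a signal in cells that the comparisons do not use. It had 11957 UMIs, of which 0.0753% came from digestive enzymes, with 93 Reg1 UMIs and 1 UMI each of Reg2, Reg3a and Reg3b. Its cluster was named endothelial-like, but it held no UMI of Pecam1 or Cdh5 and held the epithelial transcripts Epcam (21 UMIs), Krt8 (49), Krt19 (36), Pigr (40), Lgals4 (46), Lypd8 (37) and Fabp2 (18). The same barcode in EYFP negative run 2 had 870 UMIs, with 3 Reg3g, 7 Reg1 and 5 Lgals4 UMIs. Where this cell came from was not tested.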

How the results depend on the processing

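Between pancreatitis and homeostasis the count of called genes, 46, was 7 with DESeq2 size factors, 154 with DESeq2, 20 without the low-count filter, 107 with library sizes without enzyme genes, 0 with sums thinned to the smallest library, 150 with all deposited barcodes, 29 with stricter cells, 12 with doublets kept, 20 with an enzyme gate and 30 with enzyme-rich clusters. Leaving out 1 library gave 0 to 232. The cause of these shifts was not tested. No member's log2 change in this contrast reversed, with ranges of 0.98 to 2.89 for Reg1, 5.75 to 9.11 for Reg2, 4.61 to 6.57 for Reg3b and 0.58 to 2.43 for Reg3d. For EYFP positive against EYFP negative 0 genes were called under all 21 alternatives. Reg3d, at 0.01, reversed to -0.17 without the filter, -0.0014 at resolution 0.5, with the Reg genes kept or with the haemoglobin-rich cluster kept, -0.14 with the enzyme gate, -0.13 with enzyme-rich clusters and -0.0070 with the replicate block, and leaving out 1 library gave -0.17 to 0.20. Leaving out 1 library moved Reg1 from -0.99 to 0.23. The replicate block changed no call. The interaction gave 0 to 78 genes when 1 homeostasis library was left out, and could not be fitted without a pancreatitis library. The haemoglobin-rich cluster and shared barcodes were chosen as alternatives after seeing the data. Few homeostasis acinar-like cells (8 in EYFP negative run 1) limit depth.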
